A study of Mus musculus with 10 samples.

Results

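The replication licensing and fork genes comprised 44 genes, taken from the deposited expression table by gene symbol, and all 44 were found among its 55276 rows. RNA sequencing of sorted mouse stomach epithelium gave 10 libraries in 4 groups, named R122C IQ3pos (n = 2), WT IQ3pos (n = 3), R122C IQ3neg (n = 2) and WT IQ3neg (n = 3). All mice were C57BL/6, 6 to 8 weeks old, and all carried Iqgap3-2A-tdTomato, a reporter in which the red protein tdTomato is made together with the scaffold protein IQGAP3. R122C mice carried an arginine-to-cysteine change in the transcription factor RUNX3 (Runx3 R122C), and WT mice were Runx3 WT. The sources used here do not say whether the change was on both alleles. IQ3pos were epithelial cells of the stomach corpus sorted as EpCAM-positive and tdTomato-positive (Iqgap3 high), and IQ3neg were EpCAM-positive and tdTomato-negative (Iqgap3 low or negative). Each library held cells pooled from 3 mice, or from 4 mice in WT replicate 2, so the spread between libraries is a spread between pools. The comparisons made were IQ3pos with IQ3neg within each genotype, R122C with WT within each fraction, and the difference between genotypes of the fraction difference.

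Cells copy their genome by first loading the MCM2-7 helicase onto origins, a step called licensing that needs the origin recognition complex (ORC), CDC6 and CDT1 and that geminin blocks. At the start of S phase the kinase CDC7-DBF4 and partner proteins turn the loaded helicase into the active CDC45-MCM-GINS engine, after which polymerase alpha-primase lays primers, polymerases delta and epsilon extend them on the sliding clamp PCNA, and FEN1 and LIG1 finish the lagging strand. In the corpus, rapid cell division is known from the gland isthmus, while most chief, parietal and endocrine cells divide rarely. Transcription of many of these genes is known to rise on entry into S phase through E2F factors.

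The 4 promoter windows printed here show the sequence features that some members share and that the choice of genes did not use. The windows come from RefSeq (GRCm38.p6) and run from 250 bases before to 50 bases after the gene start, 300 bases in all, 5′ to 3′ on the strand of the gene. Capitals mark E2F words, namely TTTCCCGC, TTTCGCGC, TTTGCCGC or TTTGGCGC on either strand, in Mcm6 (chr1:128359656-128359955, minus strand), Mcm5 (chr8:75109259-75109558, plus strand) and Cdc6 (chr11:98907901-98908200, plus strand). In Dbf4 (chr5:8422667-8422966, minus strand), which has no E2F word in its window, capitals mark a CHR word, TTTGAA or TTCGAA on either strand, a short element known from genes of late cell division. Mcm6 and Mcm5 were printed because their paired words overlap, Cdc6 because its word stands alone, and Dbf4 because it had the largest difference between the WT fractions.
Mcm6: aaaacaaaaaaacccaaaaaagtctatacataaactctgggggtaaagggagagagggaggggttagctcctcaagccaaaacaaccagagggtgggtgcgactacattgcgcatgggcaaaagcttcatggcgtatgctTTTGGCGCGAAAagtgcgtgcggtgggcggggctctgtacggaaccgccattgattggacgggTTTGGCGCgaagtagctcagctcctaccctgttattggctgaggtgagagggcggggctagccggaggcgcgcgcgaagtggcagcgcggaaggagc
Mcm5: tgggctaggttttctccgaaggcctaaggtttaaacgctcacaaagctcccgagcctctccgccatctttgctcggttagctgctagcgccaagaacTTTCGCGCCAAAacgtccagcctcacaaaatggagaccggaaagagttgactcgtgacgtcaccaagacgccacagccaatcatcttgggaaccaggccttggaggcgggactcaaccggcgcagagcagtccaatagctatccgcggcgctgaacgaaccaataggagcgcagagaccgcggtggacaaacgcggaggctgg
Cdc6: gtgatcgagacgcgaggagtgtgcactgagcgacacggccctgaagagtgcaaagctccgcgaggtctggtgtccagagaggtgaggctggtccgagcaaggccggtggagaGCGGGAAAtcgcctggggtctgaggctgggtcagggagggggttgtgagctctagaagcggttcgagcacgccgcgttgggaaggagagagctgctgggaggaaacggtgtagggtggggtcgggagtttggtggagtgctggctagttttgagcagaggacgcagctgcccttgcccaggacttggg
Dbf4: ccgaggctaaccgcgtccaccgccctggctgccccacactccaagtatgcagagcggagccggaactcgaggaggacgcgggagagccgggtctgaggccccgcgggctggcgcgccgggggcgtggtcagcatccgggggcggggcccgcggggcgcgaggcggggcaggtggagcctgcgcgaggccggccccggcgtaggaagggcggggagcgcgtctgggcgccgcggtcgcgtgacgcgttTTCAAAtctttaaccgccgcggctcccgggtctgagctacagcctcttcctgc

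In the Mcm6 window the words began 110, 106 and 47 bases before the gene start, and those at 110 and 106 overlapped on opposite strands. The Mcm5 window had the same kind of overlap, with words at 153 and 149 bases before the start, and Cdc6 had its word at 138. The GENCODE M21 annotation starts Cdc6 at 98907801, ahead of this window, so the 138 refers to the RefSeq start only. Windows were found for 36 of the 44 members, with 45 windows in all, since some genes have more than 1 start. An E2F word stood in 16 of the 45 windows (35.6%), against 744 of the 32851 windows of all genes (2.26%). The 16 genes were Cdc6, Cdt1, Gins3, Lig1, Mcm3, Mcm5, Mcm6, Mcm7, Mcm8, Orc1, Orc3, Pola1, Pold1, Pold3, Pole2 and Rfc3. They span the loaders, the helicase, the polymerases and the clamp loader, while no E2F word was found in the windows of Pcna or Dbf4. CHR words stood in 22.2% of member windows and 19.2% of all windows, and CCAAT, the box bound by factor NF-Y, in 53.3% of member windows and 37.4% of all windows (either strand). Windows for Gmnn, Mcm4, Gins1, Gins2, Gins4, Prim2, Pole and Rfc2 were not analysed here.

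Library totals were inferred from the steps between the deposited counts per 1e6 reads (CPM), so they are the divisors behind CPM. They ran from 47.4 M to 265 M reads. The fewest reads behind a member value above the floor were 75, a counting error of 11.5%. Genes below 1 CPM are listed at 0, which applied to 33 of the 440 member values, 12 in IQ3pos and 21 in IQ3neg libraries. One library stood apart. In WT IQ3neg replicate 1 the median over the 44 members was log2 CPM 2.54, while WT IQ3neg replicates 2 and 3 had 4.01 and 4.26. Its median over 7404 genes present in all 10 libraries was likewise low, at 4.20 against 5.09 to 5.53 in the other 9, and 10 of its member values were listed at 0. Its inferred total was 59.3 M reads, and only WT IQ3pos replicate 1 had a smaller one, at 47.4 M. The listed genes of these libraries held more reads than that, 61.5 M and 49.8 M. Values without WT IQ3neg replicate 1 are given for the lists and for the members it moves most. The epithelial markers Epcam, Cdh1, Krt8, Krt18 and Cldn18 were present in every library. Their summed CPM was 9272 to 13181 in IQ3pos and 3099 to 10997 in IQ3neg. The 3099 was that of WT IQ3neg replicate 1, and the other IQ3neg libraries had 8232 to 10997. The 3 endothelial markers summed to at most 3.43 CPM and the 5 fibroblast and muscle markers to at most 18.8 CPM.

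**Figure D1:**
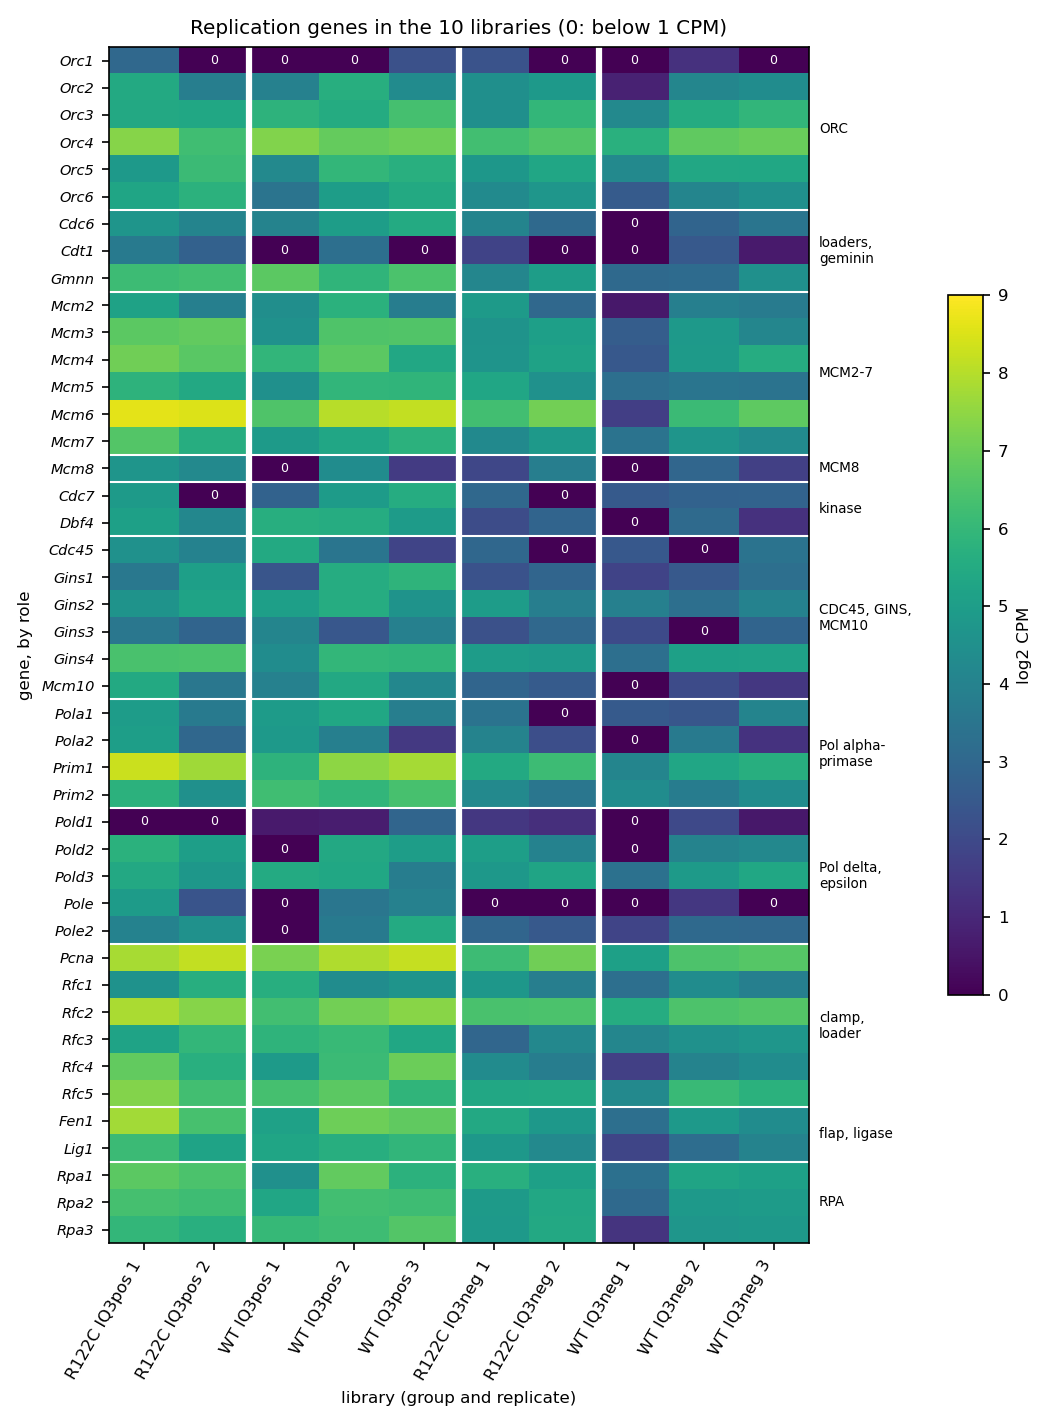
Deposited log2 CPM of the 44 replication genes (rows, by role) in the 10 libraries (columns, by group), with 0 printed where a gene is below 1 CPM. Rows such as Gmnn, Pcna and Lig1 are brighter in all 5 IQ3pos columns than in all 5 IQ3neg columns, and the WT IQ3neg 1 column is the darkest.

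Replication genes stood higher in the reporter-positive fraction of WT mice. The fitted log2 difference between WT IQ3pos and WT IQ3neg was above 0 for 44 of 44 members, with a median of 1.67 (3.17-fold), against 0.16 over all 17155 genes tested, of which 56.1% were above 0. It was above 1 for 30 members, against 18.2% of all genes. Gmnn and Dbf4 passed limma's test over all genes (adjusted p under 0.05), so 2 of 44 members rose and none fell, where 0.606% of all genes rose and 1.42% fell. At an unadjusted p under 0.05, 19 members were higher and 0 lower, against 10.4% of all genes higher and 8.21% lower. The groups did not overlap for 16 members, all higher in IQ3pos, against 13.2% of all genes higher and 8.07% lower.

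The count above 0 and the count past the test depended on single libraries, and the median moved most with WT IQ3neg replicate 1. Without it the members' median was 1.08, with −0.05 over all genes, and 38 of 44 were above 0. Gmnn alone then passed, where 310 genes did in all. Orc5, Cdt1, Mcm8, Pold2, Pold3 and Pole2 were then below 0, between −0.63 for Pold2 and −0.01 for Pole2. Leaving out libraries can only keep or raise the count of members whose groups do not overlap, so these counts are not a check. The 16 members stayed the same without WT IQ3neg replicate 1, against 13.6% of all genes. Without both WT replicate 1 libraries the count was 28, against 23.2% of all genes. Centring each library on its median also left 38 members above 0, with a median of 1.16 where all genes had −0.35. Without WT IQ3pos replicate 2 or 3, 40 of 44 members were above 0. The members' medians were 1.41 and 1.50, with 0.12 and 0.10 over all genes. No member then passed, where 115 and 118 genes did in all. With all libraries in the main fit, the median over the 29 members that were never listed at 0 was 1.18 in R122C and 1.64 in WT.

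Summed over the 44 genes, IQ3pos libraries held 3462 and 2647 CPM in R122C and 1712, 2828 and 2830 CPM in WT. IQ3neg libraries held 1128 and 1272 CPM in R122C and 412, 1092 and 1220 CPM in WT. Every IQ3pos library lay above every IQ3neg library. In bulk RNA of this kind, fewer replicating cells in IQ3neg and less of these RNAs per cell cannot be told apart.

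**Figure D2:**
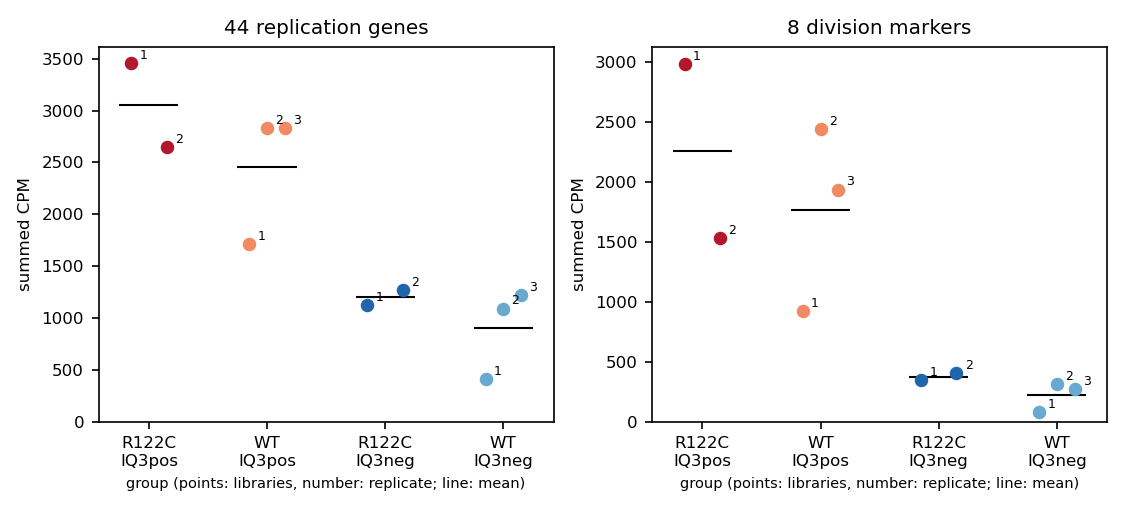
Summed CPM of the 44 replication genes (left) and of 8 cell division markers (right) in each library, by group, with the replicate number beside each point and a line at the group mean. In both panels the 5 IQ3pos libraries lie above the 5 IQ3neg libraries, and WT replicate 1 is the lowest of its group.

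Among the licensing factors, the WT fractions did not overlap for Gmnn and Cdc6 and overlapped for Cdt1. Gmnn encodes geminin, the protein that holds CDT1 inactive after origins have fired (chromosome 13, 24751845 to 24761923 on GRCm38). In R122C it stood at log2 CPM 6.18 and 6.27 in IQ3pos and 4.12 and 5.01 in IQ3neg. In WT it stood at 6.72, 5.90 and 6.45 in IQ3pos and 3.09, 3.15 and 4.53 in IQ3neg. All 5 IQ3pos libraries were above all 5 IQ3neg libraries. The difference was 1.66 ± 0.637 (SE) in R122C (adjusted p = 0.481) and 2.77 ± 0.520 in WT, or 6.80-fold, with adjusted p = 0.0217. The WT call was lost without WT IQ3pos replicate 1, 2 or 3 or WT IQ3neg replicate 2 (adjusted p = 0.0593, 0.0557, 0.0839 and 0.0764), and held without WT IQ3neg replicate 1, at 2.52 ± 0.504 (adjusted p = 0.0437). It was also lost with the WT libraries fitted alone (adjusted p = 0.106).

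Cdc6 encodes the ATPase that, with ORC, loads the helicase. In R122C its log2 CPM was 4.69 and 4.07 in IQ3pos and 4.04 and 3.06 in IQ3neg. WT libraries had 4.01, 4.99 and 5.49 in IQ3pos and a listed 0, 2.91 and 3.50 in IQ3neg. The WT groups were apart, and in R122C the lowest IQ3pos and the highest IQ3neg library nearly met. The WT difference was 2.69 ± 0.910 (adjusted p = 0.153), and 1.63 ± 0.640 without WT IQ3neg replicate 1. Cdt1, the other loading factor, was below 1 CPM in 4 of 10 libraries. Its log2 CPM stood at 3.66 and 2.80 in R122C IQ3pos and 1.81 and 0 in R122C IQ3neg, and at 0, 3.30 and 0 in WT IQ3pos and 0, 2.50 and 0.63 in WT IQ3neg. The WT groups covered the same range (difference 0.06 ± 1.07, adjusted p = 0.993, and −0.47 without WT IQ3neg replicate 1).

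The 6 subunits of ORC, which marks origins, differed least among the licensing groups. Their WT differences ran from 0.29 for Orc5 to 1.52 for Orc2, with a median of 0.62, and 0.18 without WT IQ3neg replicate 1. None of the 6 passed the test in WT, where 0.606% of all genes rose and 1.42% fell. None had an unadjusted p under 0.05 by limma, against 10.4% of all genes higher and 8.21% lower. None had WT groups that did not overlap, against 13.2% of all genes higher and 8.07% lower. Counts of 0 among 6 genes are near these shares. Orc2 stood at log2 CPM 5.46 and 3.85 in R122C IQ3pos and 4.47 and 4.86 in R122C IQ3neg, a difference of −0.01 ± 1.12. In WT it was 3.96, 5.63 and 4.33 in IQ3pos and 0.85, 4.14 and 4.37 in IQ3neg, with replicate 1 of IQ3neg far below the rest (1.52 ± 0.916, adjusted p = 0.400). Leaving that library out brought the Orc2 difference to 0.38 ± 0.653. Orc1, the ATPase subunit that joins the complex in cycling cells, was listed at 0 in 6 of the 10 libraries and nowhere passed log2 CPM 3.05.

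All 6 subunits of the replicative helicase had a higher mean in IQ3pos than in IQ3neg in both genotypes. R122C differences of Mcm2 to Mcm7 ran from 0.57 for Mcm2 to 1.93 for Mcm4, with a median of 1.71. In WT they ran from 1.18 for Mcm7 to 2.71 for Mcm6, with a median of 1.96, and 0.99 without WT IQ3neg replicate 1. By limma, unadjusted p was under 0.05 for 3 of the 6 in R122C and 5 of the 6 in WT, all higher. Of all genes, 3.1% were higher at that threshold in R122C and 10.4% in WT. Adjusted p was above 0.05 for all 6 in both. The median over all genes was 0.02 in R122C and 0.16 in WT.

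Mcm5 had the smallest p of the 6 in WT. It stood at log2 CPM 5.81 and 5.44 in R122C IQ3pos and 5.34 and 4.57 in R122C IQ3neg (0.67 ± 0.643). In WT it was 4.53, 5.93 and 5.90 in IQ3pos and 3.28, 3.48 and 3.43 in IQ3neg (2.05 ± 0.525, adjusted p = 0.0681). The WT groups were apart, while in R122C replicate 1 of IQ3neg lay just under replicate 2 of IQ3pos. Without WT IQ3pos replicate 1 the WT difference was 2.52 with adjusted p = 0.0377.

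Mcm6 was the subunit with the most RNA per length, highest of Mcm2 to Mcm7 in 9 of the 10 libraries on the scale of CPM per kb of exonic sequence. Its log2 CPM was 8.63 and 8.52 in R122C IQ3pos and 6.51, 8.02 and 8.18 in WT IQ3pos. It was 6.27 and 7.08 in R122C IQ3neg and 1.69, 6.14 and 6.75 in WT IQ3neg. The WT groups overlapped, since IQ3pos replicate 1 lay below IQ3neg replicate 3, and the difference of 2.71 ± 1.03 did not pass (adjusted p = 0.192). The Mcm6 difference was 1.12 ± 0.494 without WT IQ3neg replicate 1. Mcm2 was lowest of the 6 per kb in all 10 libraries. That rank rests on the length used, which merges all annotated exons of a gene. It was 6.96 kb for Mcm2 and 3.59 to 4.67 kb for Mcm3 to Mcm7. Without division by length Mcm2 was not the lowest in every library. In R122C IQ3neg replicate 1 its log2 CPM was 4.89 and that of Mcm7 was 4.27. Mcm2 stood at log2 CPM 5.19 and 3.87 in R122C IQ3pos and 4.89 and 3.03 in R122C IQ3neg, with overlap. In WT Mcm2 was 4.45, 5.74 and 3.83 in IQ3pos and 0.57, 3.89 and 3.75 in IQ3neg, again with overlap (1.94 ± 0.966, adjusted p = 0.306, and 0.85 ± 0.776 without WT IQ3neg replicate 1). Per kb, the group means of the helicase subunits in R122C IQ3pos ran from log2 CPM per kb 1.73 for Mcm2 to 6.35 for Mcm6.

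Mcm8, a relative of the helicase subunits with a part in recombination, had overlapping fractions in WT. Its log2 CPM was 4.70 and 4.25 in R122C IQ3pos and 1.91 and 3.85 in R122C IQ3neg, where the groups did not overlap. WT libraries of Mcm8 had 0, 4.39 and 1.56 in IQ3pos and 0, 2.96 and 1.70 in IQ3neg (0.43 ± 1.22, adjusted p = 0.881).

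The largest WT difference of the 44 was that of an origin-firing gene. Dbf4 (chromosome 5, 8396973 to 8422716), the activating subunit of the CDC7 kinase, had log2 CPM 5.12 and 4.16 in R122C IQ3pos and 2.09 and 2.91 in R122C IQ3neg. In WT it had 5.64, 5.57 and 4.94 in IQ3pos and a listed 0, 3.10 and 1.27 in IQ3neg. The 5 IQ3pos libraries were all above the 5 IQ3neg libraries. In R122C the difference was 2.14 (adjusted p = 0.650). The WT difference was 3.93 ± 0.843 (adjusted p = 0.0374), and 3.20 ± 0.721 without the library listed at 0 (adjusted p = 0.0572). With 1 library left out at a time, the call held without WT IQ3neg replicate 2 (adjusted p = 0.0394) and was lost without each of the others (adjusted p from 0.0508 to 0.116). It was lost too with the WT libraries fitted alone (adjusted p = 0.133) and with genes above 0 in at least 1 library tested (adjusted p = 0.0661). The catalytic subunit Cdc7 had a WT difference of 1.70 ± 1.29 (adjusted p = 0.505) and was listed at 0 in both fractions of R122C replicate 2.

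Of Cdc45, the 4 GINS subunits and Mcm10, none passed, where 0.606% of all genes rose in WT and 0.0291% in R122C. Their WT differences ran from 0.89 for Gins4 to 3.35 for Mcm10, with a median of 1.73, and 1.80 without WT IQ3neg replicate 1. Mcm10, which helps the loaded helicase start to unwind, stood at log2 CPM 5.47 and 3.57 in R122C IQ3pos and 2.93 and 2.58 in R122C IQ3neg. WT values of Mcm10 were 3.96, 5.45 and 4.17 in IQ3pos and a listed 0, 2.06 and 1.45 in IQ3neg. Every IQ3pos value lay above every IQ3neg value, with a difference of 1.76 ± 1.06 in R122C (adjusted p = 0.733) and 3.35 ± 0.869 in WT (adjusted p = 0.0715). Most of the exonic length of Gins2 (67.3%) overlaps Gse1 on the other strand, so without known strandedness its value is uncertain.

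Polymerase alpha-primase, which starts every Okazaki fragment, differed between the fractions by 1.72 to 2.02 over its 4 genes in WT (median 1.87, and 1.52 without WT IQ3neg replicate 1). Prim2, the large primase subunit, had log2 CPM 5.78 and 4.51 in R122C IQ3pos and 4.23 and 3.54 in R122C IQ3neg. Prim2 in WT stood at 6.24, 5.94 and 6.39 in IQ3pos and 4.36, 3.77 and 4.38 in IQ3neg. No IQ3pos library was as low as any IQ3neg library. The difference was 1.26 ± 0.610 in R122C and 2.02 ± 0.498 in WT (adjusted p = 0.652 and 0.0625). Its catalytic partner Prim1 had the second smallest adjusted p of the members in R122C, 0.317, with a difference of 2.19 ± 0.697.

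Polymerases delta and epsilon copy most of the genome, and their 5 member genes had the lowest WT median of the fork roles. Over Pold1, Pold2, Pold3, Pole and Pole2 the WT median was 0.58, and −0.01 without WT IQ3neg replicate 1, while without both WT replicate 1 libraries it was 1.11, above the 0.88 of the clamp and its loader. In WT none of the 5 had an unadjusted p under 0.05 by limma, against 10.4% of all genes higher. None had groups apart, against 13.2% of all genes higher, and counts of 0 among 5 genes are near these shares. The catalytic subunit Pole was below 1 CPM in 5 libraries. Its log2 CPM stood at 4.95 and 2.34 in R122C IQ3pos and 0, 3.54 and 3.95 in WT IQ3pos, against 0 and 0 in R122C IQ3neg and 0, 1.45 and 0 in WT IQ3neg. Pole was thus above the floor in 4 of 5 IQ3pos and 1 of 5 IQ3neg libraries (adjusted p = 0.468 in R122C and 0.365 in WT). Pold1, the catalytic subunit of polymerase delta, went the other way in R122C. It was listed at 0 in both R122C IQ3pos libraries and stood at 1.46 and 1.21 in R122C IQ3neg (adjusted p = 0.759). Pold3, an accessory subunit of polymerase delta, was above the floor in all 10 libraries. Outside the members, Pole3 had log2 CPM 5.66, 6.55 and 5.92 in WT IQ3pos and 4.36, 4.94 and 5.18 in WT IQ3neg. Pole4 had 5.81, 5.63 and 5.99 in WT IQ3pos and 4.42, 4.69 and 5.05 in WT IQ3neg, also apart. Pold4 overlapped near the floor, at 0, 0.51 and 0 in WT IQ3pos and 0, 1.41 and 0.50 in WT IQ3neg.

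The sliding clamp PCNA holds the polymerases on DNA and is placed there by the RFC clamp loader. Pcna (chromosome 2, 132249162 to 132253314) ranked highest of the 44 genes per kb in 9 of the 10 libraries, and Gmnn did in the other. Pcna had log2 CPM 7.82 and 8.17 in R122C IQ3pos and 7.20, 7.94 and 8.20 in WT IQ3pos. It had 6.17 and 7.04 in R122C IQ3neg and 5.10, 6.47 and 6.64 in WT IQ3neg. All IQ3pos libraries lay above all IQ3neg libraries, and the smallest gap, between 7.20 and 7.04, crossed genotypes. The difference was 1.39 ± 0.576 in R122C (2.63-fold, adjusted p = 0.540) and 1.71 ± 0.471 in WT (3.27-fold, adjusted p = 0.0864). Reads of the Pcna pseudogenes could add to its value. Of the 5 clamp loader genes, Rfc4 differed most in WT (2.64 ± 0.759, adjusted p = 0.0975) and Rfc2 least (0.69 ± 0.413, adjusted p = 0.397). Rfc3 had the smallest adjusted p of all members in R122C, 0.287, at 2.02 ± 0.616.

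Lagging strand maturation was read from Lig1 and Fen1. Lig1, the ligase that seals Okazaki fragments, had log2 CPM 6.14 and 5.21 in R122C IQ3pos and 4.79 and 4.22 in R122C IQ3neg. The WT libraries had 5.29, 5.64 and 5.93 in IQ3pos and 1.86, 3.23 and 4.03 in IQ3neg. All IQ3pos libraries were above all IQ3neg libraries. The difference was 1.17 ± 0.748 in R122C (adjusted p = 0.744) and 2.58 ± 0.611 in WT with adjusted p = 0.0550, just above the threshold. Without WT IQ3neg replicate 3 the WT difference passed (3.07, adjusted p = 0.0344). Fen1, the flap nuclease, had a WT difference of 2.15 ± 0.616 (adjusted p = 0.0972), with the reserve that 78.8% of its exonic length overlaps 1 gene on the other strand, and a second gene there overlaps it too.

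RPA coats the exposed DNA strand behind the helicase, and its 3 genes differed by 1.14 for Rpa1 to 2.67 for Rpa3 in WT. Rpa3 stood at log2 CPM 5.95 and 5.69 in R122C IQ3pos and 4.84 and 5.45 in R122C IQ3neg. WT values of Rpa3 were 6.04, 6.22 and 6.61 in IQ3pos and 1.35, 4.72 and 4.79 in IQ3neg. The fractions did not overlap in either genotype, and the WT difference of 2.67 ± 0.777 (adjusted p = 0.101) included the low value of WT IQ3neg replicate 1. It was 1.54 ± 0.353 without that library (adjusted p = 0.0600).

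**Figure D3:**
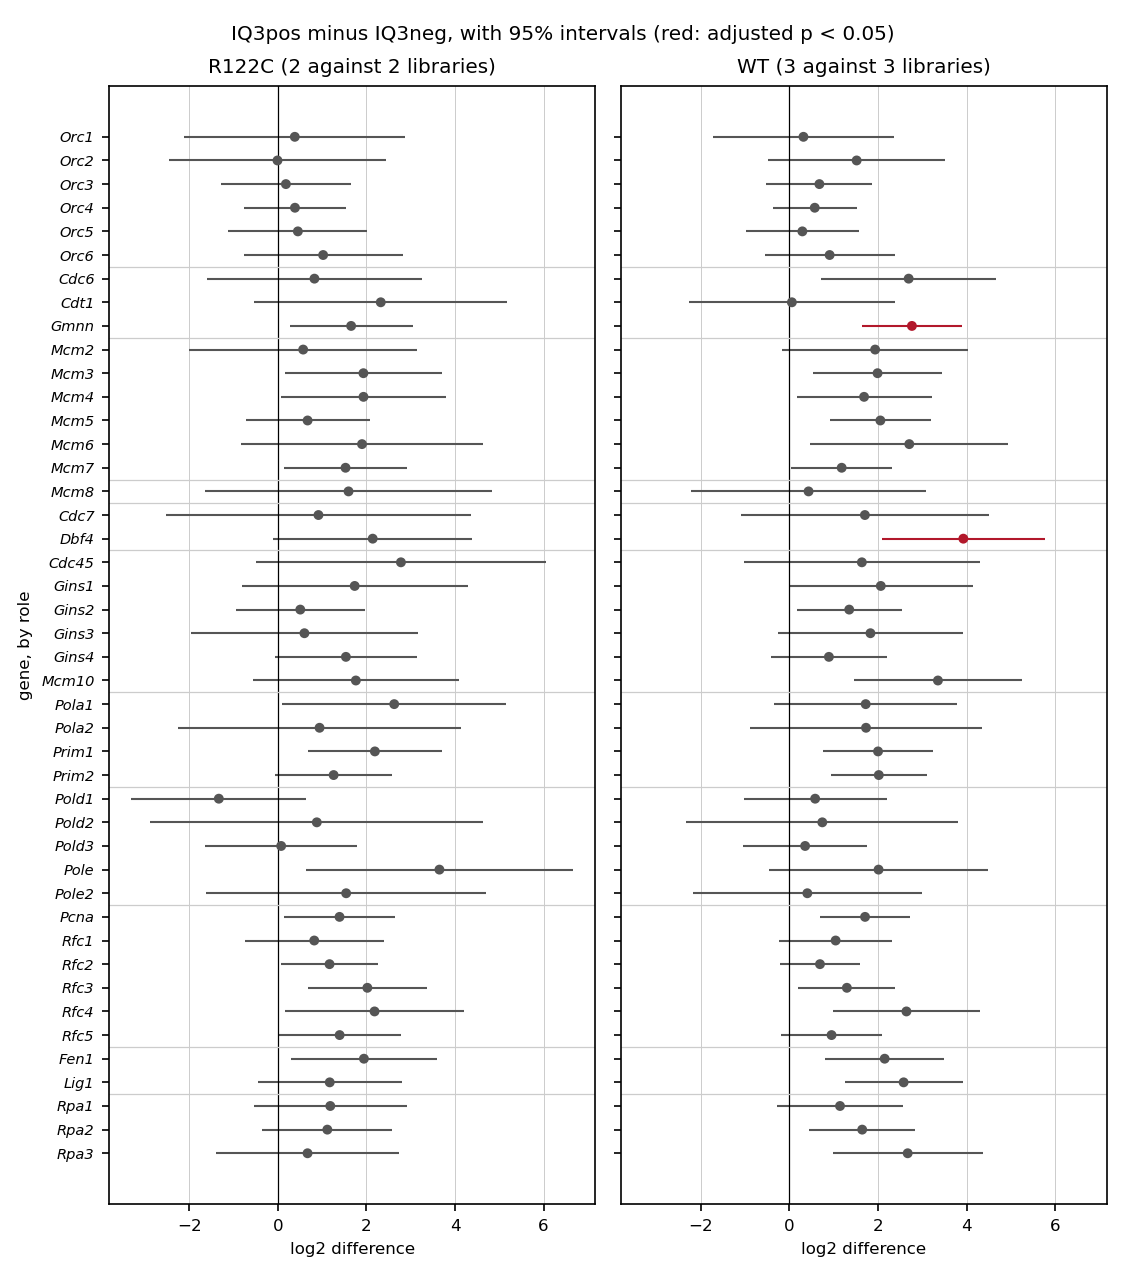
Fitted log2 difference IQ3pos minus IQ3neg for each replication gene in R122C (left) and WT (right), with 95% intervals from limma. In WT all 44 points lie above 0 and Gmnn and Dbf4 (red) pass, while in R122C 42 points lie above 0 and none passes.

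Reporter-positive cells of R122C mice showed higher replication genes over most members too, with no gene of the 44 past the test. The R122C differences were above 0 for 42 of 44 (50.6% of all genes), above 1 for 27 (13.9% of all genes), and had a median of 1.22, or 2.33-fold, against 0.02 over all genes. By limma 0 members passed, where 0.0291% of all genes were called higher and 0.291% lower, and 13 had an unadjusted p under 0.05 and a higher level (3.1% of all genes). Groups of 2 and 2 did not overlap for 31 members that were higher and for Pold1, which was lower, against 21.7% and 14.6% of all genes. Orc2 and Pold1 were the members below 0.

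Across all 10 libraries, 10 members had every IQ3pos value above every IQ3neg value, against 5.74% of all genes. They were Dbf4, Gmnn, Lig1, Mcm10, Mcm7, Pcna, Prim2, Rfc3, Rfc4 and Rpa3, from the loading inhibitor to the clamp loader. Leaving out WT IQ3neg replicate 1 could not remove any of these, and the count stayed at 10, against 5.79% of all genes. Between IQ3pos and IQ3neg libraries of the same genotype and replicate number, 25 members were higher in IQ3pos in all 5 cases, 12 in 4, 5 in 3 and 2 in 2. The members' median within these cases was 1.44 and 1.02 in R122C and 1.87, 1.55 and 1.13 in WT. Over all genes tested the median was 0 in each case but WT replicate 1, where it was 0.30, and 42.3% to 54.6% of genes were above 0.

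The promoter windows were set beside the fraction differences, with no test. The 16 genes with a word had a median difference of 1.35 in R122C and 1.24 in WT, and the 20 genes with a window and no word had 1.07 in R122C and 1.67 in WT. Without WT IQ3neg replicate 1 both WT medians were 0.97. With all libraries, the WT differences ran from 0.06 to 2.71 among the genes with a word, and from 0.29 to 3.93 among those without.

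**Figure D4:**
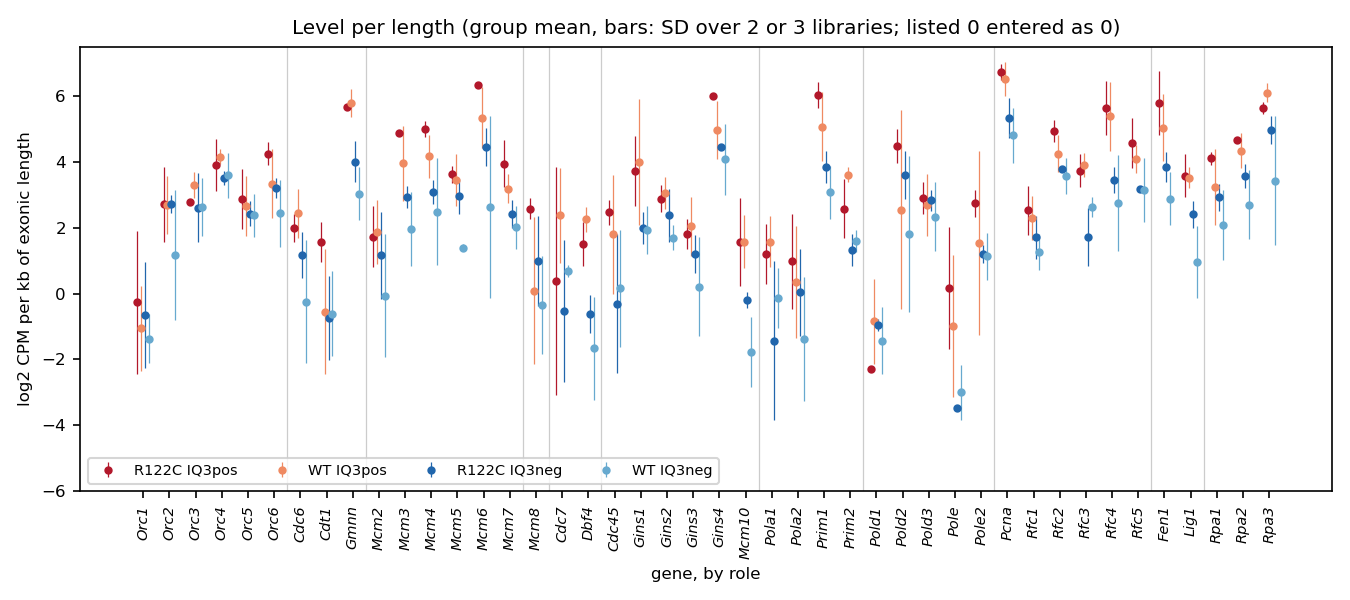
Level of each replication gene as log2 CPM per kb of exonic length, as the group mean with the SD over 2 or 3 libraries. Pcna has the highest mean in all 4 groups, Mcm6 has the highest mean of the helicase subunits in all 4, and Pole, Pold1 and Orc1 are the lowest 3 genes in both IQ3pos groups.

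On the scale of log2 CPM per kb, group means of Pcna were 6.73 ± 0.245 in R122C IQ3pos, 6.52 ± 0.517 in WT IQ3pos, 5.34 ± 0.616 in R122C IQ3neg and 4.81 ± 0.844 in WT IQ3neg (SD). At the other end Pole averaged 0.17 in R122C IQ3pos, −0.98 in WT IQ3pos and −3.48 in R122C IQ3neg, with listed zeros entered as 0 before division by length. The neighbours of Pcna in R122C IQ3pos were Mcm6 at 6.35 ± 0.0768, Prim1 at 6.04 ± 0.402 and Gins4 at 6.00 ± 0.0108. These neighbours lay within the spread of Prim1 of each other. Rpa3 came next to Pcna in WT IQ3pos, at 6.11 ± 0.289, within the spread of Pcna.

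No replication gene passed the test between the genotypes in either fraction. In IQ3pos the R122C minus WT differences had a median of 0.22 and were above 0 for 28 of 44 members, against 47.8% of all genes. Without WT IQ3pos replicate 1 the median was −0.02. By limma 0 of 44 members passed, no gene of the 17155 did (0% higher and 0% lower), and no member had an unadjusted p under 0.05 (2.06% of all genes higher and 3.36% lower). Values reached 2.49 ± 1.36 for Mcm8, and the lowest was that of Cdc7, which was at 0 in R122C IQ3pos replicate 2. The 95% intervals were wide. For Pcna the interval ran from −0.93 to 1.36 around 0.22, for Gmnn from −1.40 to 1.13 around −0.14, and for Mcm6 from −1.49 to 3.51 around 1.01. For 40 of the 44 members the interval held a doubling (a log2 difference of 1), so a difference of that size is not shown to be absent. Groups did not overlap for 3 members that were higher and 4 that were lower in R122C, against 8.28% and 7.2% of all genes.

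In IQ3neg the members' median R122C minus WT difference was 0.69, against 0.07 over all genes, with 35 of 44 above 0 (53.6% of all genes). Once WT IQ3neg replicate 1 was left out it was 0.16 with 26 above 0, against −0.15 over all genes. Here too 0 members and no other gene passed (0% in each direction). Mcm5 alone had an unadjusted p under 0.05 by limma (adjusted p = 1), against 1.33% of all genes higher. It stood at log2 CPM 5.34 and 4.57 in R122C IQ3neg against 3.28, 3.48 and 3.43 in WT IQ3neg, a difference of 1.56 ± 0.587 with no overlap. In all, 5 members were higher with no overlap and 0 lower, against 6.83% of all genes higher and 6.77% lower. A code in the sample titles, whose meaning the sources do not give, is shared by 1 pool of each genotype. Within it the members' median was 0.26 in IQ3pos and 0.13 in IQ3neg.

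The difference between the fractions was itself compared between the genotypes. By limma 0 of 44 interaction terms passed (0% of all genes in each direction) and none had an unadjusted p under 0.05 (1.32% of all genes higher and 1.26% lower). Of the 44 terms 5 were above 1, against 13.8% of all genes. Their median was −0.25 with 18 above 0, against −0.13 over all genes. Without WT IQ3neg replicate 1 it was 0.26 with 30 above 0, against 0.16 over all genes. The sign thus rested on that library. The smallest unadjusted p was 0.121, for Mcm5 (−1.38 ± 0.830, adjusted p = 1), whose fraction difference was 0.67 in R122C and 2.05 in WT.

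**Figure D5:**
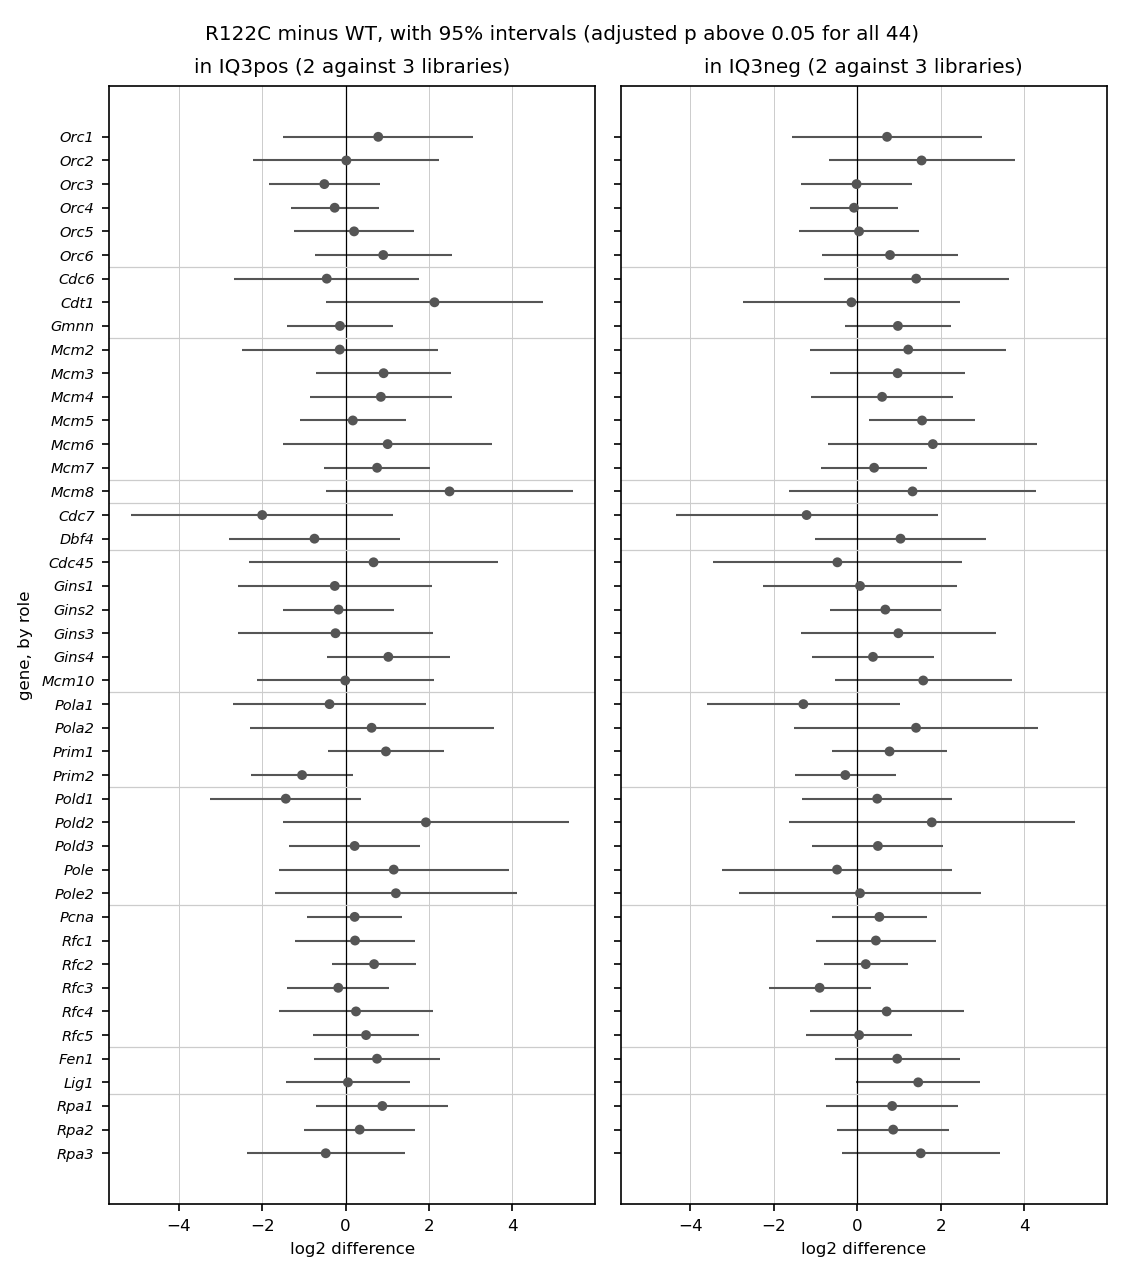
Fitted log2 difference R122C minus WT for each replication gene in IQ3pos (left) and IQ3neg (right), with 95% intervals from limma. Adjusted p was above 0.05 for all 44 genes in both panels, and only the interval of Mcm5 in IQ3neg leaves out 0.

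Other genes of the pathway were read from a list of 32 replication-associated genes of loading, firing, fork protection and primer removal. In WT, 29 of 32 differences were above 0 (56.1% of all genes), with a median of 1.15. Once WT IQ3neg replicate 1 was left out, 25 were above 0 and the median was 0.88. By limma over all genes tested 1 rose and none fell, where 0.606% of all genes rose and 1.42% fell. The gene that rose was Pclaf, which encodes a PCNA-binding protein. Pclaf had log2 CPM 6.48, 8.05 and 7.56 in WT IQ3pos and 3.42, 4.39 and 4.74 in WT IQ3neg (3.18 ± 0.521, adjusted p = 0.0119). In R122C none of the 32 passed by limma, 6 were higher and 1 lower at an unadjusted p under 0.05 (3.1% and 5% of all genes), and the median was 1.03.

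Division markers were also higher in IQ3pos. Of Mki67, Top2a, Ccna2, Ccnb1, Cdk1, Plk1, Aurka and Bub1, 8 of 8 were higher in WT IQ3pos, against 56.1% of all genes. By limma Top2a, Cdk1, Mki67, Bub1 and Ccna2 rose, where 0.606% of all genes did. The median WT difference was 3.21 (0.16 over all genes), and 2.33 without WT IQ3neg replicate 1 (−0.05 over all genes). In R122C 8 of 8 were higher (50.6% of all genes) and Top2a rose (0.0291% of all genes). The median there was 2.51, against 0.02 over all genes. The replication genes had medians of 1.22 in R122C and 1.67 in WT (1.08 without that library), and the difference between the lists was not tested.

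Markers of differentiated cells also moved with the fractions. Summed over 4 chief cell markers, IQ3pos libraries held 10321 to 13055 CPM and IQ3neg libraries 38461 to 95420, and Bhlha15 was at 0 in all 5 IQ3pos libraries. The 4 enteroendocrine markers summed to 185 to 462 CPM in IQ3pos and 10586 to 19131 in IQ3neg. The 4 pit cell markers went the other way, at 12417 to 17722 CPM in IQ3pos and 1381 to 7701 in IQ3neg, and the pair of mucous neck markers held 4421 to 6816 CPM in IQ3pos and 659 to 4101 in IQ3neg. The pair of parietal markers held 605 to 3768 CPM in IQ3pos and 412 to 1083 in IQ3neg, with overlap. The 6 immune markers summed to 0 to 261 CPM in IQ3pos and 50.8 to 369 in IQ3neg, and the pair of tuft markers to 4.34 to 87.4 CPM in IQ3pos and 83.6 to 481 in IQ3neg. WT IQ3neg replicate 1 had the highest enteroendocrine and immune sums of all libraries, at 19131 and 369 CPM. It had the lowest pit, mucous neck and parietal sums, at 1381, 659 and 412 CPM. The part of this cell make-up in the differences of the replication genes was not tested.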

How the data were processed

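RNA was sequenced from 10 libraries in 4 groups, each a pool of sorted cells. The authors deposited log2 CPM per gene, with genes below 1 CPM listed at 0. The submitters' processing notes name STAR 2.7.1a, featureCounts, Subread 2.0.0 and edgeR, with GRCm38. The sources used here do not give filters, scaling or strandedness, nor why the listed CPM sum to 1036666 to 1053761 per library. Reads behind a value cover counting error only, since PCR copies are not separate molecules.

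Members were matched by symbol. The members and lists were chosen with earlier results of these data known. Genes above 0 in at least 2 libraries (17155) were fitted with limma 3.58.1 (R 4.3.3) as 4 group means over all libraries, with a trended variance (6 residual and 6.0144 prior degrees of freedom), two-sided, with Benjamini-Hochberg adjustment over all genes and a threshold of 0.05. The fit was tested on simulated data. Members with printed library values were those called in any comparison, the smallest p of each role in WT, and Pcna, Mcm2, Mcm6, Cdc6, Cdt1 and Gmnn; Orc2, Pole, Pold1 and Mcm8 are given as values too. Coordinates and exonic lengths come from GENCODE M21. Tables and figures used Python 3.11.15, pandas 2.3.3 and matplotlib 3.10.9. Alternatives were pseudocounts, filters, median centring, no trend, fewer groups, a replicate block, a title-code term and leaving out libraries.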

Additional observations from a re-analysis of the deposited data

How the results depend on the processing

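The main fit called 2 members in WT, where 348 of 17155 genes passed in all. With log2(CPM + 5) the count was 4, with 507 genes in all. Testing genes above 0 in at least 1 library gave 1 member (191 of 21488 genes), and at least 5 libraries gave 6 (600 of 13208). The count was 6 (938 genes in all) with each library centred on its median. It was 0 (34 genes) with only the groups compared fitted, and 9 (364 genes) with title code as a term. The cause was not tested. Leaving out each library in turn gave 0 to 3 called in WT and 0 in R122C, between genotypes and in the interaction, and medians of 1.08 to 1.87 in WT, 1.05 to 1.57 in R122C, −0.02 to 0.60 for R122C minus WT in IQ3pos, 0.16 to 0.93 in IQ3neg and −0.60 to 0.26 for the interaction. The WT median was 1.07 with log2(CPM + 5). Without both WT replicate 1 libraries, 1 member, Prim1, was called in R122C, the R122C minus WT median in IQ3neg was 0.16, and in WT neither Gmnn nor Dbf4 passed limma (adjusted p = 0.0743 and 0.0999) while Mcm3, Prim1 and Mcm5 did (for Mcm5 2.46 ± 0.426, adjusted p = 0.0351). The WT difference of Cdt1 turned to −0.22 with log2(CPM + 1), −0.45 when centred, and −1.04, −0.47 and −0.15 without WT IQ3pos replicate 2, WT IQ3neg replicate 1 and WT IQ3neg replicate 3, and ran up to 0.78 without other libraries. That of Mcm8 turned to −0.077 when centred, and −0.77 and −0.34 without WT IQ3pos replicate 2 and WT IQ3neg replicate 1, and ran up to 1.43. The R122C difference of Orc2 turned to 6.52e-05 and 0.022 with the pseudocounts of 1 and 5, and 0.79 and 0.19 without R122C IQ3pos replicate 2 and R122C IQ3neg replicate 2, with −0.81 as its lowest. That of Mcm2 turned to −0.09 and −0.36 without R122C IQ3pos replicate 1 and R122C IQ3neg replicate 2, with 1.50 as its highest. The cause of these turns was not tested. Same-numbered libraries of a genotype share the title code and the number of mice pooled, and the labels do not say whether they come from the same mice. With the number as a replicate block, 9 members were called in WT, and 364 genes in all against 348. They were Dbf4, Fen1, Gmnn, Lig1, Mcm3, Pcna, Prim1, Prim2 and Rfc4. Between fractions this block and the title-code term are the same model, so their shared result is not a second check. Same-numbered libraries had correlations of deviations of 0.162, 0.115 and 0.0808 in WT, each the highest for its library, and 0.105 in R122C, where 2 pairs fix the value. Member levels below 1 CPM are listed at 0, so they are not resolved here at any depth. The WT medians of the lists and promoter subsets without WT IQ3neg replicate 1 were chosen after seeing the data.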
